A study of Caenorhabditis elegans with 2 samples.

Results

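Peaks of tagged SNU-23 on the X chromosome that lie away from annotated gene 5' ends were described. A peak was counted when it was in the authors' final ce11 list, lay on X and had its summit over 500 bp from the 5' end of every annotated gene of any biotype. There were 603 such summits, of 1353 final summits on X and 6675 in all. The other 750 summits on X lay within 500 bp of a 5' end. The peaks came from ChIP-seq, which sequences the DNA precipitated with a protein, of whole Caenorhabditis elegans hermaphrodites at the first larval stage (L1), taken 6 hours after synchronisation by starvation following bleaching. The strain, OP528, carries the integrated transgene wgIs528, in which snu-23 is fused to TY1, EGFP and 3xFLAG tags beside an unc-119(+) rescue marker, in an unc-119 (tm4063) background. Chromatin was sonicated and precipitated with an antibody against GFP in 2 biological replicates, and there was no second genotype, stage or treatment. Both genes on the transgene, snu-23 and unc-119, lie on chromosome III, so sequence from the extra copies of these genes maps there and not to X. Whole animals mix all larval tissues, and peak lists hold no expression values by which the stage or sex could be checked.

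SNU-23 is homologous to a component of the tri-snRNP, the spliceosomal particle that brings U4, U5 and U6 RNAs to an intron. In XX hermaphrodites, transcription of X is lowered by the dosage compensation complex, a condensin-like machine. That complex loads on X at recruitment elements, many of which hold clustered copies of a short motif, and spreads from there. The letters CGCAGGG stand within that motif, and they were searched on both strands within 50 bp of each summit, together with the variant CGAAGGG, which was picked after values had been seen.

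The sequences below span 50 bp on each side of the summit of 8 of the strongest X peaks away from 5' ends, all read on the + strand of WBcel235 (ce11) from RefSeq. Capitals mark CGCAGGG or CGAAGGG on either strand, so the reverse strand reads CCCTGCG or CCCTTCG. The first 6 are the 6 strongest peaks, each with at least 1 copy.
Between adm-2 and K02D3.1, chrX:13700813-13700913: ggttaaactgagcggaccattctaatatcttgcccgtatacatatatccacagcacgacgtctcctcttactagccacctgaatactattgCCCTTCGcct
Between F20B6.9 and hpk-1, chrX:4209220-4209320: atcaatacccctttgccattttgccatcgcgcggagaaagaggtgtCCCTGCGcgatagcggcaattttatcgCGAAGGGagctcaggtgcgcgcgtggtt
Between ZK899.6 and gap-2, chrX:9465817-9465917: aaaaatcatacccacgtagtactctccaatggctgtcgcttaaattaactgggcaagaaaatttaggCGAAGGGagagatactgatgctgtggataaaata
Between W04G3.11 and W02H3.3, chrX:11094150-11094250: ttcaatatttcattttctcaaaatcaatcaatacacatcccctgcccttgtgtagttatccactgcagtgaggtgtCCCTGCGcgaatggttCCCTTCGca
Intron 7 of mom-1, chrX:6296496-6296596: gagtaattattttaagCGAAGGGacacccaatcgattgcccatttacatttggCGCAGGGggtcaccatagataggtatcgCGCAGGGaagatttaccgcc
Between dot-1.4 and F55G7.5, chrX:11937492-11937592: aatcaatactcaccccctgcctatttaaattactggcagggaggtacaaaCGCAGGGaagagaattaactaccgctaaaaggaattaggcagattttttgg
The last pair, ranked 7 and 11 among the X peaks away from 5' ends, is shown because neither word is present within 50 bp of the summit, although each has 1 copy elsewhere in its peak interval. Of the 25 strongest peaks, 17 have a copy anywhere in the interval.
Between F22H10.2 and F22H10.11, chrX:16682056-16682156: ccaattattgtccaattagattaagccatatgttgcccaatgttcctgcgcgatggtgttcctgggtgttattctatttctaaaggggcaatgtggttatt
At the 3' end of T27A8.7, chrX:16056538-16056638: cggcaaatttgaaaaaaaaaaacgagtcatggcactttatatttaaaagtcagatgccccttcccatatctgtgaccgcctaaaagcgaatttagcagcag
Copies of the words stood alone or in groups of up to 3, as in the mom-1 intron, and on either strand.

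These peaks were among the highest of the whole list and were found in both replicates. The authors' signal is a value per peak relative to a control, with no stated unit. For these peaks it was higher in the pooled list than in either replicate. The peak between adm-2, a gene for an ADAM metalloprotease, and K02D3.1 had a signal of 956 in replicate 1, 1120 in replicate 2 and 2078 in the pooled list, where it ranked 7. The peak between F20B6.9 and hpk-1, which encodes a homeodomain-interacting protein kinase, had 937, 1028 and 1957 (rank 9). The peak between ZK899.6 and gap-2, a Ras GTPase-activating protein gene, had 867, 1014 and 1877 (rank 10). All of them were far above the pooled median of 136 of the X peaks away from 5' ends. Sets of 3 signals below are in the order replicate 1, replicate 2, pooled. The next, between W04G3.11 and W02H3.3, had 866, 1012 and 1874. The strongest peak inside a gene was in intron 7 of mom-1, 3434 bp from its 5' end, with 831, 919 and 1745. MOM-1 is the Porcupine homolog that acts in Wnt secretion. The peak between dot-1.4 and F55G7.5 had 783, 874 and 1661.

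The 25 strongest X peaks away from 5' ends were the same 25 whether or not they had to be found in both replicates. Of these, 19 were intergenic, 3 lay at 3' ends, 2 in introns and 1 in an exon. In replicate 2 the signal was higher for 24 of 25, at 0.935 to 1.33 times replicate 1, and no peak ranked below 289 in replicate 1 or 284 in replicate 2. The exonic peak was in pks-1, a polyketide synthase gene, at signals of 587, 737 and 1328, and lay 10012 bp from the nearest annotated 5' end. Of the peaks at 3' ends, 1 lay between gtr-1 and F25E2.2 (734, 841 and 1549), outside the 500 bp window of the gtr-1 3' end. The others lay beside T27A8.7 (675, 726 and 1405) and F19H6.5 (616, 701 and 1320). Upstream of named genes there were peaks at ins-39, an insulin-like peptide gene (567, 632 and 1196), and at sma-9, a Schnurri homolog of body size signalling (479, 574 and 1046). Lower in the 25 stood spc-1, the alpha spectrin gene (407, 486 and 880), and ain-1, a GW182 family gene of microRNA silencing (384, 449 and 840). The gap between the collagen gene col-185 and cdk-4, a cyclin-dependent kinase gene, held a peak of 425, 398 and 821, the single case of the 25 in which replicate 1 was higher. Between sms-2, a sphingomyelin synthase gene, and the arrestin gene arr-1 the signals were 349, 431 and 777. The last of the 25, near the bHLH gene hlh-29, had 346, 376 and 733. Its summit holds 36-base words that occur elsewhere in the genome, so its placement is uncertain. Such words were found at 7 of the 603 summits (1.16%).

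Copies of the recruitment element words were concentrated in the highest X peaks away from 5' ends. Either word stood within 50 bp of 32 of 603 summits (5.31%, exact 95% interval 3.66 to 7.41%), against a background of 0.442% of all windows of that length on X that lie over 500 bp from a 5' end. CGCAGGG was at 19 summits against 0.145% of those windows, and CGAAGGG at 19 against 0.298%. Windows centred 500 bp to either side of the same summits held either word in 5 of 1206 (0.415%). Of the 25 strongest peaks 14 had a word (56.0%, 34.9 to 75.6%), of the next 75 there were 5 (6.67%), and of the remaining 503 there were 13 (2.58%). CGAAGGG was picked after these summits had been seen, so its counts are not independent of them. CGCAGGG alone was at 10 of the 25 strongest (40%, 21.1 to 61.3%), 3 of the next 75 and 6 of the remaining 503. In the strongest 6675 peaks of each replicate alone, 32 of 592 and 32 of 609 peaks chosen in the same way had a word, and 15 and 12 of the 25 strongest did. A match of letters is a description and not a binding site, and ChIP of dosage compensation proteins was not analysed here.

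**Figure D1:**
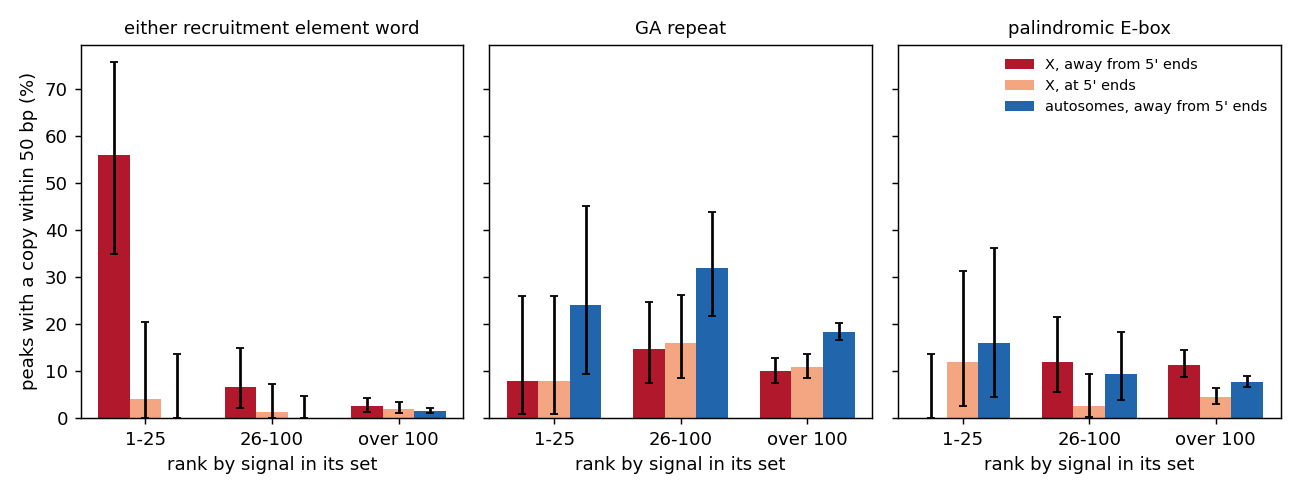
Share of peaks (%) with a recruitment element word, the GA repeat or the palindromic E-box (1 panel each) within 50 bp of the summit, by signal rank within 3 sets of peaks, with exact 95% intervals that cover counting error only. In the first panel the strongest 25 X peaks away from 5' ends reach 56.0%, and the 503 ranked below the first 100 stand at 2.58%.

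Autosomal peaks away from 5' ends held the words less often and with no concentration at the top. There the count was 32 of 2119 (1.51%), with 0 of the 25 strongest (exact upper limit 13.7%) and 0 of the next 75. X peaks at 5' ends had a word at 15 of 750 (2.00%) and at 1 of their 25 strongest. These counts include CGAAGGG, which was picked after the X summits had been seen, so the comparison is not independent of them. CGCAGGG alone was at 19 of 603 X summits away from 5' ends (3.15%) and 17 of 2119 autosomal ones (0.802%). At X peaks at 5' ends it was at 10 of 750 (1.33%). No test across peaks was made, since the peaks share 2 replicates. Among the 603 X peaks, the 32 with a word had a median signal of 627, against 133 for the 571 without. In single replicates those 32 had medians of 317 and 351. On autosomes away from 5' ends the medians were 127 with a word and 129 without. Of the 32, 21 were intergenic, 6 intronic, 3 at 3' ends and 2 exonic, and 30 were found in both replicates. The 6 summits with at least 2 copies had pooled signals of 1328 to 1957 and a median width of 940.5 bp. Outside the 25 strongest, words also stood by a peak beside dpy-23, an adaptor complex gene (242, 280 and 523), and beside srg-64, of a chemoreceptor family (192, 227 and 419).

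Read from the genome outwards, the words were about as dense on X as on the autosomes. There were 945 copies on X (53.3 per Mb) and 4265 on the autosomes (51.7 per Mb). A final summit of any kind lay within 50 bp of 58 copies on X (6.14%) and of 90 on autosomes (2.11%). Copies within 100 bp of the next were joined into clusters, and a cluster counted as at a final peak when a summit lay within 250 bp of its centre. Of 37 clusters of at least 2 copies on X, 11 were at a final peak (29.7%), and of 146 on autosomes, 3 were (2.05%). Of the 10 clusters on X with at least 3 copies, 2 were at a final peak (20%), with signals of 1745 and 1707. None with 4 copies or more, up to 33, was. The cluster of 33 copies spans 877 bp, so a summit inside it could be over 250 bp from its centre. It lies beside clusters of 11 and 2 copies, between 15482509 and 15483880, that were counted singly. Whether reads can be placed in such runs was not tested, so these counts do not show how copy number and peaks are related. Of the 11 on X, 8 were peaks away from 5' ends and 3 were at 5' ends, and their signals ran from 100.2 to 1957 with a median of 1561.

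**Figure D2:**
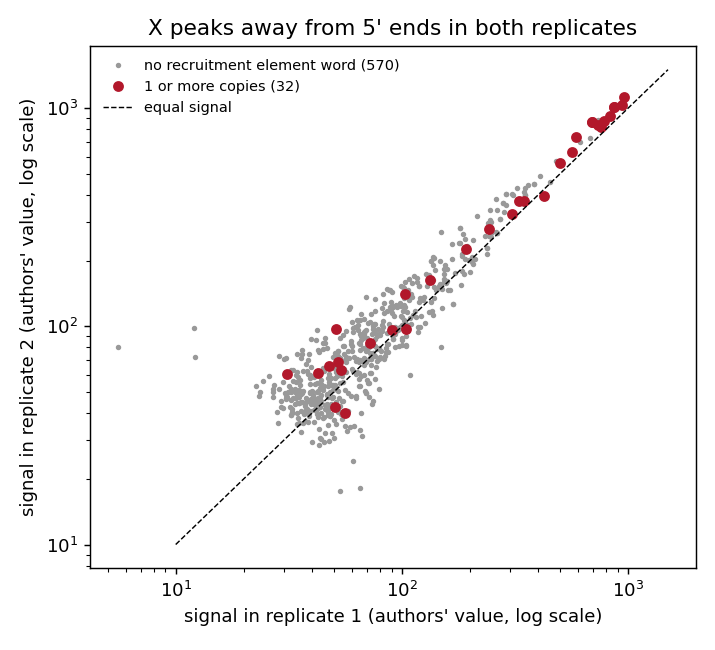
Signal of the X peaks away from 5' ends in replicate 1 (horizontal) and replicate 2 (vertical), both on log axes in the authors' units, with peaks that hold a recruitment element word marked. The 602 peaks with a value in both replicates lie along 1 band (Pearson r 0.906), and the marked ones fill most of its upper end.

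Apart from this top, the X peaks away from 5' ends were modest. Their pooled signals ran from 71.8 to 2078, with a median of 136 and quartiles of 92.7 and 221. The median was 167 for X peaks at 5' ends, 129 for autosomal peaks away from 5' ends and 186 for autosomal peaks at 5' ends. Yet 9 of the 25 strongest final peaks of the genome were X peaks away from 5' ends, against 1 autosomal peak away from 5' ends. Among the 100 strongest they numbered 16 (2.65% of the 603), and 15 autosomal peaks away from 5' ends were there (0.708% of 2119). Among the 1000 strongest, X peaks away from 5' ends numbered 71 (11.8%, against 15.0% of all peaks). The final list holds 6675 of the 30000 pooled candidates (22.2%). Of 4040 candidates on X away from 5' ends, 14.9% were in it, and of 14954 such candidates on autosomes, 14.2%.

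Agreement of the replicates was high but a little below that of the whole list. The final list was itself selected by rank agreement of these 2 replicates, so high agreement is partly built into it. A peak was counted as found in a replicate when its summit lay inside 1 of that replicate's 6675 strongest peaks. Of the 603 peaks, 500 (82.9%, exact 95% interval 79.7 to 85.8%) were found in both, against 86.5% of all final peaks. Another 45 were found only in replicate 1, 53 only in replicate 2 and 5 in neither. The share was 82.6% for autosomal peaks away from 5' ends and 87.2% for X peaks at 5' ends. Over the 602 peaks with a value in both, Pearson's r of the log10 signals was 0.906 and Spearman's rho 0.848, across peaks that share the same 2 libraries. Replicate 2 was higher for 443 peaks, with medians of 65.6 in replicate 1 and 76.5 in replicate 2. The ratio had a median of 1.17, and its log2 had an SD of 0.46 over peaks. The median distance between the pooled summit and that of either replicate was 10 bp. A second summit within 1 pooled interval can fall in the same replicate peak as the first, so its replicate values may repeat.

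Width varied only weakly with signal. The median width was 336 bp (quartiles 213 and 396 bp, range 99 to 2594 bp), and 157 peaks (26.0%) had exactly 396 bp, the most frequent width among the candidates. Over 700 bp wide there were 23. Width and signal had a rho of 0.187 across the 603 peaks. The 25 strongest had a median width of 668 bp. The 603 summits fell in 589 intervals, of which 14 held a pair.

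X peaks away from 5' ends lay mostly between genes and seldom in exons. Each summit was put in 1 class, in the order 3' end (within 500 bp of one), exon, intron, intergenic, and the classes were set against the bases of X that are over 500 bp from any 5' end. Intergenic sequence held 316 of 603 (52.4%, exact 95% interval 48.3 to 56.5%), against 33.6% of those bases. Introns held 188 (31.2%, 27.5 to 35.0%), close to their 31.0% of bases. Regions at 3' ends held 77 (12.8%, 10.2 to 15.7%) against 15.6% of bases. Exons held 22 (3.65%, 2.30 to 5.47%) against 19.7%. The intergenic and exonic shares thus differed from their bases by far more than the replicates did from each other, at 53.2% and 52.4% intergenic and 4.22% and 4.27% exonic in replicates 1 and 2 alone. The intronic share was 29.9% and 30.7% in the replicates. Autosomal peaks away from 5' ends were placed likewise, with 44.9% intergenic against 22.3% of bases and 3.59% exonic against 23.5%. Median signals on X were 148 in intergenic sequence, 132 in introns, 133 at 3' ends and 109 in exons.

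**Figure D3:**
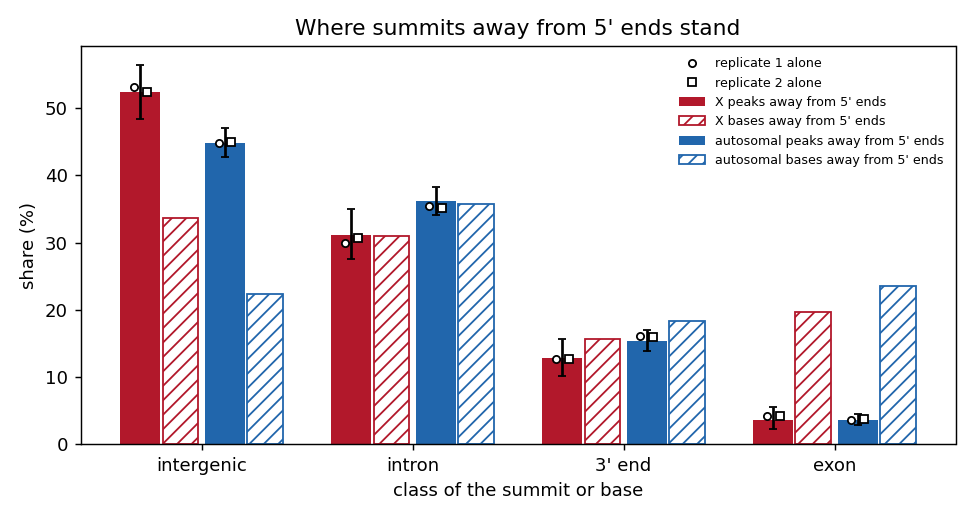
Share (%) of summits away from 5' ends in intergenic sequence, introns, 3' ends and exons, on X and on autosomes, as filled bars with exact 95% intervals for the final list and open symbols for each replicate alone; hatched bars give the share of bases over 500 bp from a 5' end. On X, intergenic summits exceed their 33.6% of bases, exonic summits fall below 19.7%, and introns are close to 31.0%.

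Between genes, the peaks lay in long gaps, whatever the orientation of the flanking genes. Of the 380 peaks outside coding genes, 140 (36.8%) lay between divergent genes, 199 (52.4%) between genes in tandem and 41 (10.8%) between convergent genes, against 34.7%, 54.0% and 11.3% of the bases. The median gap that held a peak was 6421 bp, against 1792.5 bp for all 2376 gaps, although longer gaps also have more bases over 500 bp from a 5' end. The distance to the nearest 5' end had a median of 1497 bp, quartiles of 938 and 2430 bp and a maximum of 12978 bp in H18N23.2. Within 1000 bp there were 170 peaks, and over 5000 bp away there were 28. The nearest 5' end belonged to a coding gene for 377 peaks, to a non-coding RNA gene for 163, to a piRNA gene for 23 and to another class for 40. The summit was upstream of that end for 362 (60.0%).

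Of the 603 peaks, 223 (37.0%) lay between the ends of a coding gene, and 155 of 2731 coding genes of X (5.68%) contained one. When each peak was assigned to the coding gene around it, or else to the coding gene with the nearest 5' end, 414 genes (15.2%) had a peak. The 152 genes that hosted an assigned peak had a median length of 6362 bp, against 2548 bp for all coding genes of X and 3937 bp for those over 2 kb long. Introns with a peak had a median length of 2743 bp, against 58 bp for all. Long genes and introns have more bases over 500 bp from a 5' end, so these lengths would differ even for peaks placed evenly, and the intronic share of peaks was close to that of bases. First introns held 68 of 187 (36.4%), against 22.4% of the intronic bases away from 5' ends.

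A few genes held peaks in series, 17 of them with at least 3. The longest series was in scd-1 (12503887 to 12525789), with 9 peaks whose signals ran from 78.2 to 539, of which 8 were found in both replicates. Its highest, in intron 1, had 264 in replicate 1 and 268 in replicate 2. Next came F49E2.5 with 7 peaks (75.9 to 302), ZK470.2 with 6 (73.7 to 493) and H18N23.2 with 6 (74.3 to 254). Of genes with known roles, sma-9 held 5 (72.4 to 676) and the bicarbonate transporter gene abts-4 held 4 (105 to 588), as did C30G4.4 (92.0 to 327). With 3 each there were the heterochronic regulator lin-14, the GATA factor gene elt-3 of the epidermis, the muscleblind homolog mbl-1, the LIM domain-binding gene ldb-1 and gap-2. The nuclear hormone receptor genes nhr-1, nhr-27 and nhr-40, and unk-1 and H28G03.2, also had 3. Of these, nhr-27 is 102756 bp long, and a long gene has more room for peaks.

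The share of genes with an assigned peak differed widely between groups, as did their lengths. The gene lists were chosen with earlier results of these data known, so their shares and intervals, here and below, are descriptions and not tests. Over all coding genes of X it was 15.2%, and 5.68% had the peak between their ends. Nuclear hormone receptor genes, for ligand-regulated transcription factors, had a peak at 17 of 27 (63.0%, exact 95% interval 42.4 to 80.6%), and 9 of 27 had one between their ends, and their median length was 4321 bp. The highest were upstream of nhr-1 (280 in replicate 1, 367 in replicate 2, 651 pooled), at nhr-17 (262, 343 and 609) and at nhr-14 (246, 269 and 515). Wnt, Notch and growth factor signalling genes had a peak at 8 of 12 (66.7%, 34.9 to 90.1%), and their median length was 4907.5 bp. They were led by mom-1 and sma-9, described above, and by pdk-1, a kinase of insulin signalling (244, 306 and 550). The members of both lists are longer than the median X gene, and the part of length in these shares was not tested. The bHLH genes listed had 3 of 8 (8.52 to 75.5%), namely hlh-29, the Max-like mxl-3 (181, 241 and 431) and hlh-13 (81.1 pooled). This list leaves out mdl-1, a Mad-like bHLH gene, which had a peak in an intron (190, 251 and 441). The homeobox genes listed had 0 of 27 (upper limit 12.8%). That list leaves out dve-1, a homeodomain gene, which had a peak in an intron (76.1 pooled).

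Of the lists of neurons and cell contacts, only the neurotransmitter receptor genes had an interval wholly below the 15.2% of all coding genes of X. They had a peak at 3 of 77 (3.90%, 0.811 to 11.0%), at pooled signals of 258 for pbo-6, 172 for gnrr-3 and 99.7 for glr-8. Ion channel genes had 3 of 41 (1.54 to 19.9%), including the innexin gene unc-9 (96.1 in each replicate, 187 pooled), twk-20 (97.2) and inx-5 (85.8). Neuropeptide and insulin genes had 3 of 37 (1.70 to 21.9%), with ins-39 far above the FMRFamide-like peptide genes flp-18 (160) and flp-19 (105). Axon guidance and adhesion genes had 6 of 38 (15.8%, 6.02 to 31.3%), level with all coding genes, led by madd-3 (407), mig-15 (203) and rig-1 (96.3). Chemoreceptor genes had 2 of 32 (0.766 to 20.8%), at srg-64 and srv-7 (140). In tissue lists, muscle genes had 5 of 20 (8.66 to 49.1%), led by the PINCH homolog unc-97 (76.3, 133 and 206), the troponin I gene tni-1 (161) and pat-9 (160), and collagens had 3 of 30 (2.11 to 26.5%), at col-185, col-166 (145) and dpy-3 (90.7).

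Genes of the machineries named above were few on X. The lists are too short to be set apart from the 15.2% of all coding genes of X with any precision. Of 6 splicing genes 3 had a peak (11.8 to 88.2%), in mbl-1 (62.9, 69.2 and 131), sup-12 (118), whose product regulates muscle splicing, and rnp-9 (85.3). Of 6 X signal element and dosage compensation genes only sex-1, a nuclear receptor gene that counts X chromosomes, had one (0.421 to 64.1%), in intron 2 (46.9, 39.1 and 85.3), and it was not found in both replicates. Ribosomal protein and translation genes had 0 of 5 (upper limit 52.2%).

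Along X the distances between neighbouring peaks covered a wide range. The median distance between neighbouring summits was 12957 bp (quartiles 2598 and 38613 bp) in a chromosome with 1 such summit per 29385 bp on average, and it was 12965 and 12100.5 bp in the replicates alone. A median lies below the mean for spacing with a long upper tail, so the gap between them is no measure of grouping. Within 2 kb of the next lay 111 of 602 (18.4%), of which 21 were under 250 bp apart. Chains of such neighbours made 83 groups with 194 peaks (32.2%), of at most 4 each. The autosomes were similar, with a median of 14594 bp, 20.0% within 2 kb and 34.0% in groups. Summits under 250 bp apart can share an interval and depend on how the caller splits it.

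**Figure D4:**
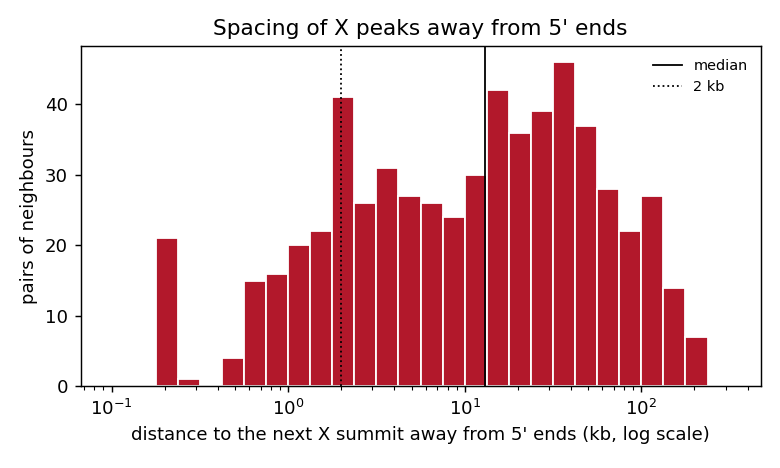
Number of neighbouring pairs of X summits away from 5' ends (vertical) by the distance between them in kb (log axis), with the median as a solid line and 2 kb as a dotted line. The distances spread from 199 to 210785 bp, and 21 pairs form a separate bar under 250 bp.

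Density per base available was higher on X than on most autosomes. Away from 5' ends there were 46.3 peaks per Mb of X (45.4 and 46.7 in the replicates alone), against 37.2 per Mb of all autosomes (36.8 and 36.9). Single autosomes ranged from 25.1 on V to 48.3 on III (46.9 and 48.1), so III was above X. Of X summits 44.6% (41.9 to 47.3%) were away from 5' ends, against 39.8% (38.5 to 41.1%) on autosomes, where 73.5% and 69.1% of bases are that far from a 5' end. Along X, 1 Mb bins held 20 to 60 peaks, and the highest bin, from 13 to 14 Mb, had 58 and 62 in the replicates alone. The last 0.72 Mb held 44, or 75.7 per Mb of bases away from 5' ends, against 83.4 in the highest bin.

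The densest 100 kb held 18 peaks between 13315243 and 13383476, with signals of 72.5 to 614 and a median of 125, of which 14 were found in both replicates. Both replicates alone gave 17 there. It includes a peak in an intron of the sirtuin gene sir-2.2 (282, 334 and 614) and peaks near mxl-3. The sir-2.2 summit lies 199 bp from the 5' end of an annotated transcript. The longest stretch with none ran 210785 bp, from 1627129 to 1837914, and had 36 coding genes but no final peak of any kind. The next, from 8786888 to 8995640, measured 208752 bp, and its 32 coding genes went with 13 final peaks, all near 5' ends.

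The summits of X peaks away from 5' ends were richer in G and C than their surroundings. GC content within 50 bp of the summit was 44.6% ± 7.31 (SD over 603 peaks), against 33.4% in windows 500 bp to either side, and it was higher at 522 of 603. Autosomal peaks away from 5' ends had 44.4% and 34.5%, and X peaks at 5' ends 48.1%. The palindromic E-box CACGTG, the word of many bHLH factors, was at 66 summits (10.9%, 8.57 to 13.7%), against 1.31% of X windows and 1.99% of flanks. It was at 7.93% of autosomal peaks away from 5' ends and 4.53% of X peaks at 5' ends, and 60 of the 66 were found in both replicates. None of the 25 strongest peaks had it. The strongest with it were in introns of abts-4 (272, 311 and 588) and T04C10.3 (247, 258 and 512).

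The repeat GAGAGAG, known as a motif of the zinc finger factor EOR-1, went the other way. It was at 63 summits (10.4%, 8.12 to 13.2%), against 1.03% of X windows and 1.24% of flanks, but at 18.9% of autosomal peaks away from 5' ends. The highest X peaks with it were upstream of F46H5.2 (361, 443 and 806) and sms-2. AGACGCA, a word picked after values had been seen, was at 35 (5.80%), against 0.637% of X windows and 14.2% of autosomal peaks away from 5' ends. CACACAC was at 42 (6.97%, windows 1.05%) and ACGCGC at 31 (5.14%, windows 0.864%). At X peaks at 5' ends CACACAC was at 9.47% and ACGCGC at 10.3%. They were at 8.21% and 4.29% of autosomal peaks away from 5' ends, and at 5.28% and 13.9% of those at 5' ends. The letters of splice sites were scarce at the summits. The 3' splice word TTTTCAG was at 10 (1.66%), against 9.06% of windows, and the 5' splice word GTAAGT at 6, against 4.30%. They were scarce at other peaks too. TTTTCAG was at 1.47% of X peaks at 5' ends, and at 2.22% and 2.72% of autosomal peaks away from and at 5' ends. GTAAGT was at 2.27%, 1.27% and 1.94% in that order. Summits were also seldom in exons, and the part of their placement in these shares was not tested. Words rich in A and T were also scarce, with a run of T at 60 (windows 21.6%) and TAATTA at 9 (windows 5.29%), beside the GC difference given above. The GATA word TGATAA was at 57 (9.45%), close to its 9.93% of windows. A second E-box, CAGCTG, was at 15 summits (2.49%, windows 1.78%), and the AP-1 word TGACTCA at 10 (1.66%, windows 1.07%).

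**Figure D5:**
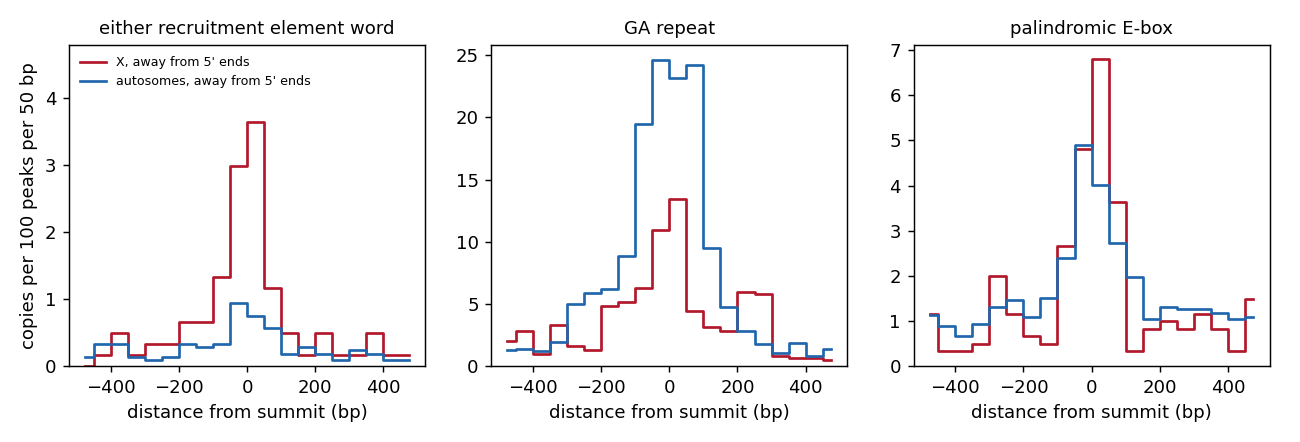
Copies per 100 peaks in each 50 bp bin (vertical) by distance from the summit in bp, for the recruitment element words, the GA repeat and the palindromic E-box (1 panel each), at X and autosomal peaks away from 5' ends. Copies are most frequent near the summit in each panel, with the recruitment element words higher on X and the GA repeat higher on autosomes.

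Signals just inside and just outside the distance limit covered like values. Just inside 500 bp, at 480, 479 and 477 bp upstream of the 5' end, were peaks at got-1.2 (98.8), abhd-3.2 (120) and cel-mir-47 (122). Just outside were those at F13D11.4 at 501 bp (35.6, 49.1 and 86.6), T27B1.8 at 502 bp (69.0, 95.5 and 160) and nfki-1 at 502 bp (43.8, 45.4 and 89.9). Of the 603 peaks, 42 lay within 500 bp of the 5' end of some annotated transcript other than the gene's outermost one.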

How the data were processed

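ChIP-seq peak lists of tagged SNU-23 from 2 biological replicates of 1 group were used. Per the labels, animals were whole L1 hermaphrodites, and the tag was precipitated through its GFP. The deposited ce11 lists hold 30000 candidates for each replicate and 30000 for the pooled replicates. The final 6675 peaks passed the authors' limit on the irreproducible discovery rate, which scores rank agreement. The authors' lists give each peak a signal value relative to a control, a −log10 q-value and a summit. Signals served only for ranking and description. The deposited −log10 q-value was at its ceiling of 4.38 for all 603 X peaks away from 5' ends, so it could not rank them. Neither the aligner nor the peak caller is given in the sources used here. Read numbers are not in the lists, and the depth is unknown. The ce10 lists were not used, apart from a count of 8993 final peaks.

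Gene positions came from Ensembl release 115 and sequence from RefSeq, both of WBcel235, the assembly of ce11, on 6 chromosomes. Positions are 1-based. The 46890 genes include 19973 coding genes. Classes, distances, introns of the longest coding transcript, GC content and 14 words were computed with Python 3.11.15, numpy 2.4.6, pandas 2.3.3 and scipy 1.17.1, figures with matplotlib 3.10.9, and the counting steps were tested on simulated data. Because the final list pools the replicates, error is given by repeating each count on the strongest 6675 candidates of each replicate alone. Exact (Clopper-Pearson) 95% intervals cover counting error only and treat neighbouring peaks as independent. With 1 group no difference between conditions was tested. The X peaks, the 14 gene lists and the words were chosen with earlier results of these data known. Named genes are those of the 25 strongest X peaks away from 5' ends found in both replicates, genes with at least 3 peaks, the 3 strongest of each list, and those next to the 500 bp limit; others were chosen after their values were seen. Alternatives were other distances, coding or transcript 5' ends, single replicates, the stronger 3337 final peaks, other matching rules and sequence windows. Those added after seeing the data were each interval counted once and the GC content without peaks that hold a recruitment element word.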

Additional observations from a re-analysis of the deposited data

How the results depend on the processing

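The number of X peaks away from 5' ends was 931 with 5' ends of coding genes only and 255 in the stronger 3337 final peaks, and 592 to 609 in single replicates. Their share of X summits was 55.4% with a 250 bp limit, 32.0% with 1000 bp, 68.8% with coding 5' ends, 41.5% with the 5' ends of every transcript and 39.4% in the stronger peaks, and 44.2 to 44.8% in single replicates. The intronic share was 28.6% in the stronger peaks, 35.1% with 1000 bp and 27.1% with every transcript, and 29.9 to 30.7% in single replicates. The median spacing was 34954 bp, 19504.5 bp and 15126.5 bp in that order, and 12100.5 to 12965 bp in single replicates. GC content was 46.3%, 44.1% and 44.4% in that order, 44.39 to 44.42% in single replicates, 45.5% and 42.7% in windows of 25 and 100 bp each side, and 44.5% without peaks that hold a recruitment element word. In the stronger peaks the median signal was 249.7 and 99.2% were found in both replicates. That share was 58.5% when each peak had to overlap by at least 50% and 99.8% with any candidate. The cause of these shifts was not tested where the setting itself does not give it. Of 46 alternative values, 19 stayed within the spread of the replicates, or within 1.5 times for counts. Within 100 bp of the summit, 46 of 603 peaks (7.63%) and 16 of the 25 strongest had a recruitment element word, against 53 of 2119 autosomal peaks away from 5' ends (2.50%) and 0 of their 25 strongest.

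No paired analysis was possible because the series has 1 group of replicates and no second group to pair with it. Depth is unknown, the signal has no stated unit, and the q-values are at their ceiling.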
